A study of Komagataella phaffii with 102 samples.

Results

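A set of 213 genes, out of the 5116 in the expression tables of Komagataella phaffii, was lower in the Cluster 2 strains than in 3 reference strains after growth in methanol, with a smaller difference after growth in glycerol. The members were chosen by D, the mean log2(CPM + 1) of the Cluster 2 strains (YB-4289, YB-4290, Y-7556 and YB-378) minus that of the reference strains (Y-12729, Y-48123 and Y-48124), where CPM is counts per 1000000 counts of the library. A member had D at or under -1.5 in methanol and an absolute D under 1 at both glycerol times, and lay at least 50 kb from the annotated end of its contig. The name Cluster 2 is the study's own and comes from expression in these same libraries. The choice of members used the values of those 7 strains, which are given below as a description without tests. The strains Y-17741, X-33, GS115 and Y-11430 took no part in the choice, and all tests below compare their libraries.

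RNA-seq had been done on 38 libraries from methanol, 36 from 24 h glycerol and 28 from 48 h glycerol, of 11 nontransgenic strains grown in 24-well plates. Cells had 24 h in medium with 4% (v/v) glycerol and were then collected (24 h glycerol) or moved to fresh medium until 48 h. The fresh medium held glycerol (48 h glycerol) or 1.5% (v/v) methanol (methanol). The study does not say whether the fresh glycerol medium also held 4%. GS115 is a histidine auxotroph obtained by mutagenesis of Y-11430, and X-33 and Y-48124, a banked X-33, derive from GS115. X-33 is widely described as a histidine prototroph, but the study found both strains to carry another substitution at the His4 position mutated in GS115 and to grow slowly without histidine. Y-17741 differs in sequence from Y-11430 at many positions, as do YB-378 and YB-4289. The study found Y-7556, YB-4290, Y-12729 and Y-48123 each to differ from Y-11430 by a single nucleotide, and Y-7556 and YB-4290 to be identical. The Cluster 2 mean thus counts the same genotype under both of these names. Y-11430 took no part in the choice but is a near relative of the reference strains Y-12729 and Y-48123. The 4 strains outside the choice had 42 libraries, of which 17 were from methanol (4 of Y-17741, 3 of X-33, 3 of GS115 and 7 of Y-11430). The study calls the replicates of its growth measurements under these conditions independent, and nothing in the sources says so of the sequenced libraries, so p-values measure the spread between these libraries, which may be technical.

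Methylotrophic yeasts grow on methanol by oxidizing it to formaldehyde with alcohol oxidase inside peroxisomes, which multiply on this carbon source. Formaldehyde is then either assimilated through dihydroxyacetone synthase or oxidized to carbon dioxide through a glutathione-dependent pathway. The genes of this pathway are known for very low expression on glycerol or glucose and very high expression on methanol. No member carries a gene name in the sources used here, so members are given by the identifiers of the annotation and none is assigned to a step of this pathway. Of the 213 members, 145 were not called for methanol against 48 h glycerol in Y-11430. For Cluster 2 against the same reference strains in methanol, the study lists cytoplasmic translation as the most significant gene set. The methanol utilization pathway is in that list too, at a weaker significance. Whether members belong to either set was not tested.

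Library totals ran from 70901 to 16336681 counts, with a median of 3810597. The library X-33 methanol C had only 70901 counts, which limits the precision of its low values, and 5 of the 213 members had no count in it. In methanol 4 libraries lay apart from others of their strain in the level of the members: Y-12729 B at 5.87, Y-48123 C at 5.73 and Y-48124 C at 6.09 were low, and X-33 C at 7.63 was high. The labels do not settle whether each of these 4 libraries holds the strain it is labelled with, which was not tested, so D and every X-33 value in methanol rest on labels that could not be checked. The 4 libraries also enter the estimate of spread behind every p-value below, p-values for GS115 and Y-17741 included. The levels above are means over the 213 members on the log2(CPM + 1) scale, which is the scale of every level below. Part of each library, called unlisted TPM, lay outside the listed genes. In methanol it was 38.8 to 41.1% of TPM in Y-17741, 37.3 to 43.7% in X-33, 16.8 to 21.5% in GS115 and 13.2 to 37.9% in Y-11430. It was 12.5 to 32.8% in Cluster 2 (median 19.9%) and 19.0 to 46.2% in the reference strains (median 32.0%). The part of unlisted TPM in the results was not tested.

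Across the 7 strains that defined the set, the members lay at 4.38 to 5.50 in the 11 Cluster 2 libraries from methanol, against 5.73 to 7.77 in the 10 reference libraries. Without Y-12729 B, Y-48123 C and Y-48124 C the other 7 reference libraries lay at 7.60 to 7.77. At 24 h glycerol the levels were 7.76 to 8.14 in Cluster 2 libraries and 7.62 to 8.08 in reference libraries, and at 48 h glycerol they were 6.32 to 6.99 and 6.51 to 7.69. The median D of the members was 0.15 after 24 h in glycerol and -0.34 after 48 h, where the medians of all genes were -0.03 and 0.15. The median D of the members was -1.98 in methanol, where the median of all genes was -0.09. In methanol 21 members had D under -3 and 108 had D above -2, so many members lay close to the limit. The members just inside were GQ67_02199 (-1.503), GQ67_01968 (-1.503) and GQ67_00574 (-1.505), and the genes just outside were GQ67_04505 (-1.494), GQ67_01196 (-1.493) and GQ67_04086 (-1.491). Of 290 genes with D at or under -1.5 in methanol, 68 were left out by a glycerol limit and 9 by the distance to a contig end. Without the 3 low reference libraries the median D was -2.48, 368 genes met the rule, and 212 of the 213 members were among them.

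In the strains outside the choice the members took 3 different levels in methanol. GS115 was high at 7.95 ± 0.01 (SD, n = 3) and Y-11430 was high at 7.67 ± 0.07 (SD, n = 7). Y-17741 was intermediate at 6.36 ± 0.24 (SD, n = 4), with libraries A to D at 6.05, 6.62, 6.29 and 6.48. X-33 was split, with A at 5.30, B at 5.15 and C at 7.63, so its mean of 6.03 lies where no X-33 library does. At 48 h glycerol the same strains lay closer together, at 7.51 in Y-17741, 6.91 in X-33, 7.23 in GS115 and 7.08 in Y-11430. At 24 h glycerol they lay at 8.14, 7.97, 7.78 and 7.41 in the same order of strains. The members took 18.9 to 24.4% of all counts in the GS115 methanol libraries and 23.3 to 31.9% in those of Y-11430, against 2.70 to 4.60% in Cluster 2.

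**Figure D1:**
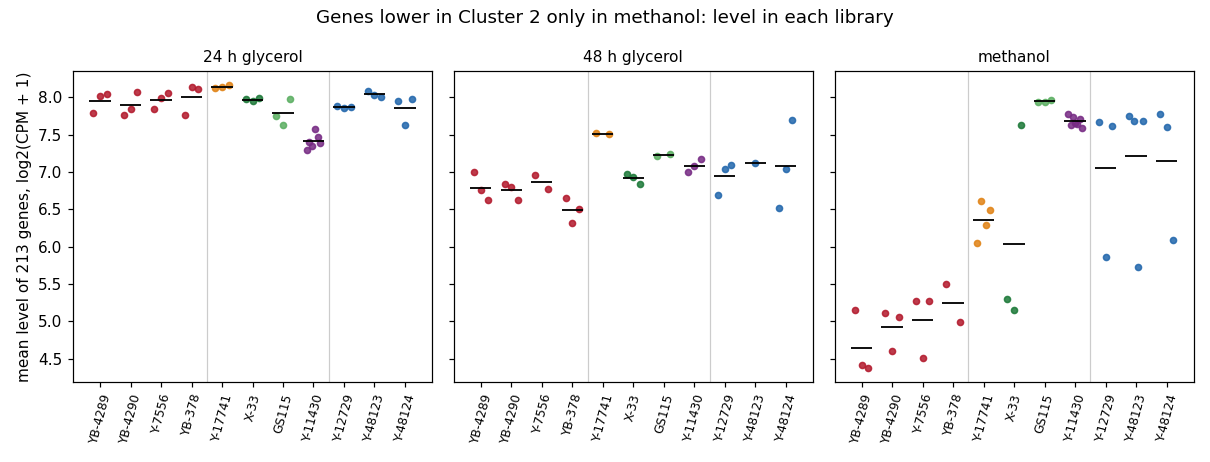
Mean level of the 213 members, log2(CPM + 1), in each library (points) with the mean of each strain (bars), for Cluster 2 strains (red), Y-17741 (orange), X-33 (dark green), GS115 (light green), Y-11430 (purple) and reference strains (blue). In methanol the Cluster 2 libraries lie at 4.38 to 5.50, and X-33 and the reference strains each hold libraries at both a low and a high level.

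X-33 was lower than Y-11430 in methanol for 175 of the 213 members and higher for 0, where 16.3% of all 5087 genes tested were called lower and 12.1% higher (edgeR quasi-likelihood test, Benjamini-Hochberg adjusted p under 0.05 and at least 1 on the log2 scale). The median log2 fold change was -1.47 over the members and -0.14 over all genes. The size of this difference depends on which X-33 libraries are used. Without X-33 C, 196 members were lower and 1 higher, with a median of -1.96, where 967 of all genes were lower and 736 higher. Without X-33 A, 105 members were lower, against 611 of all genes. Without X-33 B, 74 members were lower, against 562 of all genes. By single libraries, 210 members in X-33 A and 211 in X-33 B lay under every Y-11430 methanol library, against 45 in X-33 C. The shares over all genes were 55.6%, 49.8% and 35.8% for A, B and C. All 3 X-33 libraries lay under all 7 Y-11430 libraries for 43 members (20.2%), where the share of all genes was 16.6%, and over them for 0 members, where it was 5.21%.

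Y-17741 was lower than Y-11430 in methanol for 93 members and higher for 5, where 17.3% of all genes were called lower and 12.3% higher. The median log2 fold change was -0.84 over the members and -0.02 over all genes. All 4 libraries of Y-17741 lay under all 7 of Y-11430 for 54.0% of the members, against 26.2% of all genes, and over them for 4 members, against 17.9% of all genes. By single libraries, 180, 130, 156 and 149 members in A to D lay under every Y-11430 library, where the shares of all genes were 46.4%, 40.0%, 35.4% and 40.1%. The counts were made on the Y-11430 annotation, and any part of sequence divergence in the values of Y-17741 was not tested.

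GS115 was higher than Y-11430 in methanol for 28 members and lower for 7, where 8.89% of all genes were called higher and 3.50% lower. The median log2 fold change was 0.05 over the members and -0.02 over all genes. Every GS115 library lay over every Y-11430 library for 68 members, against 15.9% of all genes, and under for 20 members, against 11.5% of all genes. By single libraries, 41, 44 and 26 members in A to C lay under every Y-11430 library, where the shares of all genes were 21.9%, 19.5% and 23.8%.

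**Figure D2:**
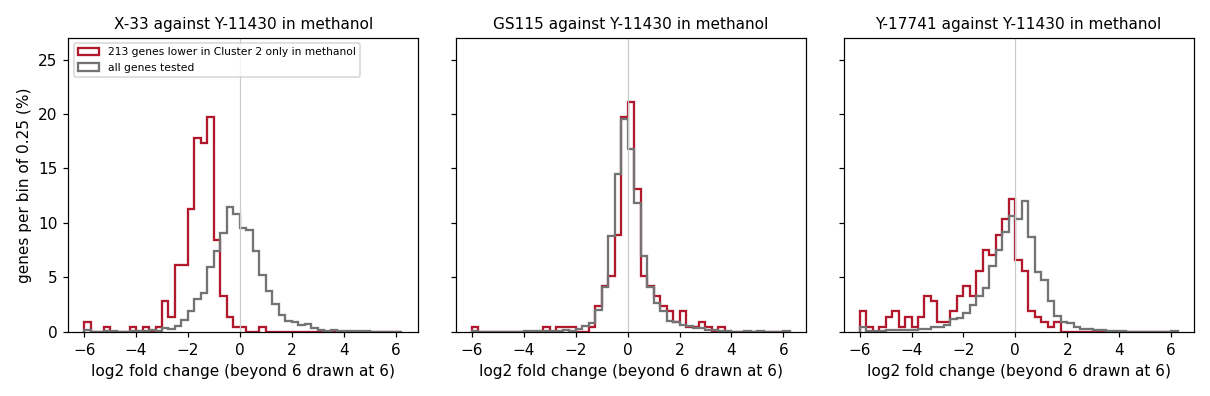
Share of genes per bin of log2 fold change for X-33, GS115 and Y-17741 against Y-11430 in methanol, for the 213 members (red) and all 5087 genes tested (grey). The medians of the members are -1.47, 0.05 and -0.84, and those of all genes lie between -0.14 and -0.02.

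The same comparisons at 48 h glycerol gave fewer calls. X-33 was higher than Y-11430 for 2 members and lower for 1, where 2.71% of all genes were called higher and 2.95% lower. These calls were GQ67_04222 and GQ67_02000 (higher) and GQ67_04718 (lower). Without X-33 B, Y-11430 B or Y-11430 C at 48 h glycerol no member was called, without X-33 A 1 was, and DESeq2 called 6. GS115 was higher for 14 members and lower for 0, where the shares of all genes were 3.48% and 1.10%. Without GS115 B that number was 8, and without Y-11430 B it was 9. Y-17741 was higher for 22 and lower for 4, where the shares were 5.90% and 8.59%. Y-17741 had 2 libraries there, and without its library B only 5 members were called.

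Whether the step from 48 h glycerol to methanol differed from that of Y-11430 was tested as an interaction. It was more negative in X-33 for 103 members and more positive for 0, where 13.3% of all genes were called lower and 9.67% higher. The number of members more negative in X-33 was 166 without X-33 methanol C, 58 without A and 40 without B. Of all genes, 884, 511 and 421 were called lower in these settings. The step was more negative in Y-17741 for 97 members and more positive for 1, where the shares were 15.4% and 11.5%. Without Y-17741 B at 48 h glycerol, 61 members were called. In GS115 6 members were more negative and 4 more positive, where the shares were 2.46% and 3.24%. The GS115 number was 2 without its library B at 48 h glycerol, 4 without its library C there, 6 without Y-11430 B at 48 h glycerol and 15 without GS115 methanol C. These 3 comparisons, like those above, share the Y-11430 libraries.

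Methanol against 48 h glycerol within Y-11430 divided the members into 50 that rose, 18 that fell and 145 that were not called, where 12.1% of all genes rose and 7.63% fell. They are called the rising, falling and steady genes below. This division uses the Y-11430 methanol libraries, so counts against Y-11430 within a division are a description. In GS115 32 of the 50 rising genes rose on methanol, and in X-33 21 and in Y-17741 14 did. Over all 213 members, 37 rose and 15 fell in GS115 (10.5% and 6.84% of all genes), 21 rose and 90 fell in X-33 (20.0% and 20.3%), and 17 rose and 77 fell in Y-17741 (19.1% and 19.8%). For X-33, 10 rose and 133 fell without its methanol library C, where 1075 of all genes rose and 1132 fell. In the mean of the 4 strains 34 rose and 45 fell, where 13.5% of all genes rose and 10.3% fell.

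The level of the rising genes in methanol was 5.04 to 6.03 in the Cluster 2 libraries, 5.97 to 6.68 in Y-17741, 5.61, 5.63 and 8.83 in X-33 A, B and C, 8.69 to 8.84 in GS115 and 8.66 to 9.26 in Y-11430. The steady genes lay at 4.00 to 5.31 in the Cluster 2 libraries, 6.06 to 6.61 in Y-17741, 5.14, 4.95 and 7.16 in X-33, 7.61 to 7.67 in GS115 and 7.13 to 7.30 in Y-11430. Y-17741 was lower than Y-11430 for 36 of the 50 rising, 11 of the 18 falling and 46 of the 145 steady genes. X-33 was lower for 40, 11 and 124 of them.

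The Y-11430 methanol libraries, which every comparison with that strain uses, were not alike in these genes. Over the rising genes, A to G lay at 9.19, 8.66, 9.17, 8.71, 8.73, 9.26 and 8.74, with A, C and F above the other 4. Over the falling genes they lay at 7.90, 7.38, 8.06, 7.48, 7.51, 7.99 and 7.50, with the same 3 libraries highest. Over the steady genes the 7 libraries lay at 7.13 to 7.30. Unlisted TPM was 32.0, 19.4, 27.1, 21.6, 21.7, 37.9 and 13.2% in A to G and so was highest in A, C and F too, and its part in these values was not tested.

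**Figure D3:**
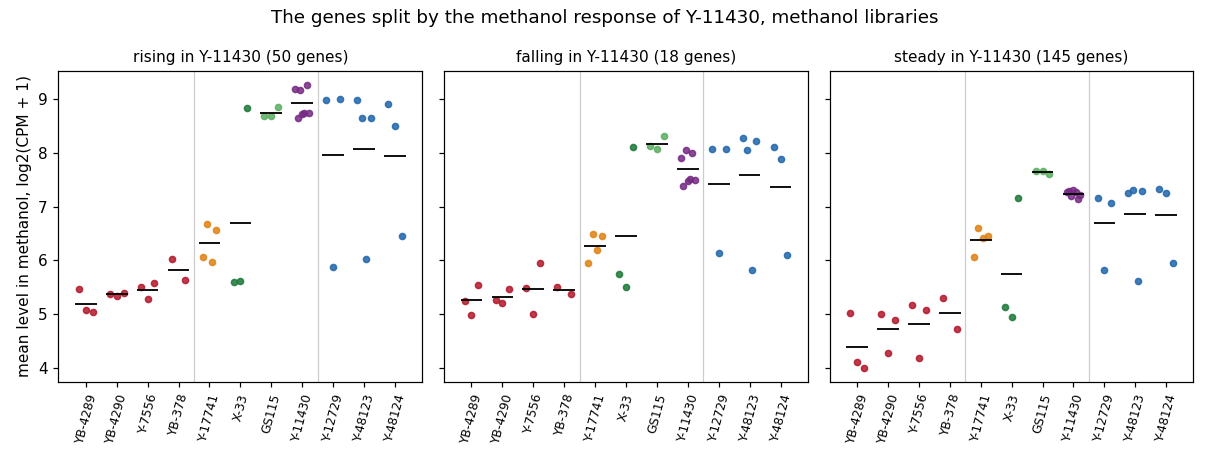
Mean level in methanol, log2(CPM + 1), of the 50 rising, 18 falling and 145 steady genes in each library (points) with the mean of each strain (bars), coloured by strain as in the plot of levels by condition. Cluster 2 libraries lie at 5.04 to 6.03 in the rising genes, where Y-11430 lies at 8.66 to 9.26.

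GQ67_05214 (chromosome 4, 1583138 to 1585129, minus strand, 1 exon, on the authors' Y-11430 assembly) was called higher in methanol in all 4 strains outside the choice. It had 69490, 60150, 29599 and 60233 CPM in methanol in Y-17741, against 39.3 and 335 CPM at 48 h glycerol. In Y-11430 it had 43858 to 61668 CPM in methanol (median 51834), against 147 to 162 CPM at 48 h glycerol. The log2 fold change was 8.65 ± 1.06 (SE) in Y-17741 (edgeR adjusted p = 1.13e-10) and 8.58 ± 0.86 in Y-11430 (edgeR adjusted p = 1.46e-13). In X-33 it had 3066, 2832 and 48335 CPM in methanol, and in GS115 14109, 10905 and 41286 CPM. The Y-17741 libraries thus overlapped those of Y-11430, while the Cluster 2 libraries had 4639 to 14617 CPM. GS115 A and B lay inside the Cluster 2 range, and X-33 A and B under it.

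GQ67_03943 (chromosome 3, 1628284 to 1630407, plus strand, 1 exon) had D of -5.06. It had 830, 3211, 380 and 2270 CPM in methanol in Y-17741, 429, 363 and 50874 CPM in X-33, 36629, 35707 and 41987 CPM in GS115, and 34761 to 56927 CPM (median 40006) in Y-11430. Every Y-17741 library, and A and B of X-33, lay under every Y-11430 library, while X-33 C and GS115 overlapped them. Y-17741 was lower than Y-11430 by a log2 fold change of -4.60 ± 0.85 (edgeR adjusted p = 3.11e-06).

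GQ67_04205 (chromosome 3, 2079914 to 2081206, minus strand, 1 exon) had the lowest D, at -5.09. It had 101, 264, 38.8 and 199 CPM in methanol in Y-17741, 89.2, 121 and 10620 CPM in X-33, 2196, 2140 and 3777 CPM in GS115, and 9817 to 14134 CPM (median 12192) in Y-11430. Here GS115 lay under Y-11430 with no overlap and over all Cluster 2 libraries, which had 38.0 to 289 CPM. The log2 fold changes against Y-11430 were -6.19 ± 0.84 in Y-17741 (edgeR adjusted p = 2.16e-09), -1.96 ± 0.75 in X-33 (edgeR adjusted p = 0.0237) and -2.25 ± 0.76 in GS115 (edgeR adjusted p = 0.0168). The X-33 value describes none of its libraries: it was -6.51 without X-33 C, and -1.37 and no longer called without A or without B. The GS115 value was -2.10 without GS115 A and -2.06 without B, and was then no longer called.

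GQ67_01599 (chromosome 1, 2417932 to 2419594, minus strand, 1 exon) was low on glycerol and had the largest rise of the 213 members in Y-11430. It overlaps the neighbouring member GQ67_01598 on the opposite strand, and since strand is not given for the counting, reads of the pair may not be separable. It had 3499 to 5821 CPM in methanol in Y-11430 (median 4070), against 4.38 to 6.18 CPM at 48 h glycerol. The rise was 9.94 ± 1.32 on the log2 scale (edgeR adjusted p = 2.82e-09). In Y-17741 it had 73.7, 148, 26.1 and 116 CPM in methanol, against 8.15 and 32.5 CPM at 48 h glycerol. The interaction of Y-17741 with Y-11430 was -7.22 ± 1.52 (edgeR adjusted p = 0.000132).

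GQ67_02737 (chromosome 1, 854611 to 855391, plus strand, 1 exon) was a steady gene in Y-11430 and fell in Y-17741. It had 9.1, 9.0, 20.4 and 17.3 CPM in methanol in Y-17741, against 809 and 791 CPM at 48 h glycerol. In Y-11430 it had 706 to 1685 CPM in methanol (median 1025), against 789 to 1529 CPM at 48 h glycerol. The Cluster 2 libraries had 16.6 to 118 CPM, so Y-17741 A and B lay under all of them, and C and D above only the lowest. Y-17741 was lower than Y-11430 by a log2 fold change of -6.33 ± 0.80 (edgeR adjusted p = 2.61e-10).

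GQ67_01720 (chromosome 1, 2213408 to 2214889, plus strand, 1 exon) was a falling gene. It had 9.69, 12.6, 10.2 and 11.6 CPM in methanol in Y-17741, against 1730 and 1297 CPM at 48 h glycerol, a log2 fold change of -6.79 ± 0.75 (edgeR adjusted p = 6.00e-12). In X-33 it had 15.8, 12.5 and 254 CPM in methanol, against 1473, 1436 and 1479 CPM. In GS115 it had 20.9, 21.0 and 43.0 CPM in methanol, against 262 and 279 CPM, with A and B inside the Cluster 2 range of 13.6 to 29.6 CPM. In Y-11430 it had 43.4 to 209 CPM in methanol (median 53.7), against 488 to 640 CPM.

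GQ67_01039 (chromosome 2, 1846870 to 1847732, minus strand, 1 exon) had 1.02 to 2.19 CPM in methanol in Y-17741, 8.68, 3.50 and 282 CPM in X-33, and 174 to 203 CPM in GS115. In Y-11430 its libraries A to G had 149, 20.8, 191, 19.4, 33.7, 150 and 37.3 CPM. GS115 overlapped this range and its log2 fold change against Y-11430 was 0.97 ± 0.68 (edgeR adjusted p = 0.279).

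GQ67_04371 (chromosome 4, 163794 to 164816, plus strand, 1 exon) varied widely among the Y-11430 methanol libraries. Libraries A to G had 12040, 62.8, 17747, 67.1, 188, 14852 and 238 CPM. A, C and F were thus far above the rest, as they were in GQ67_01039, and in GQ67_01720 with 169, 51.1, 209, 48.3, 43.4, 205 and 53.7 CPM. It had 4.08 to 8.23 CPM in Y-17741, 28.0 to 42.3 CPM in X-33 and 15.9 to 21.6 CPM in GS115. Its log2 fold changes against Y-11430 were -10.08 ± 1.12 in Y-17741, -7.44 ± 1.18 in X-33 and -8.59 ± 1.19 in GS115. The lowest Y-11430 library was still above every library of those 3 strains.

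GQ67_01063 (chromosome 2, 1884352 to 1885566, minus strand, 1 exon) went the other way in Y-17741. It had 259, 201, 330 and 169 CPM in methanol in Y-17741, against 90.4 and 98.7 CPM at 48 h glycerol, a rise of 1.65 ± 0.44 (edgeR adjusted p = 0.00112). In X-33 it had 11.6, 9.91 and 28.2 CPM, under every Y-11430 library (69.1 to 209 CPM, median 156) and close to the Cluster 2 libraries (7.14 to 39.3 CPM).

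GQ67_01120 (chromosome 2, 1988158 to 1989385, minus strand, 1 exon) was higher in GS115 than in Y-11430. It had 335, 387 and 195 CPM in methanol in GS115, against 13.9 to 31.7 CPM (median 21.0) in Y-11430, a log2 fold change of 3.65 ± 0.21 (edgeR adjusted p = 6.01e-25). At 48 h glycerol it had 77.9 and 64.8 CPM in GS115, against 11.8 to 12.5 CPM in Y-11430. GQ67_02199 and GQ67_03071 were also higher in GS115 in methanol, by 2.96 ± 0.17 and 3.19 ± 0.20, and GQ67_00749 was higher in GS115 at 48 h glycerol by 2.70 ± 0.45.

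**Figure D4:**
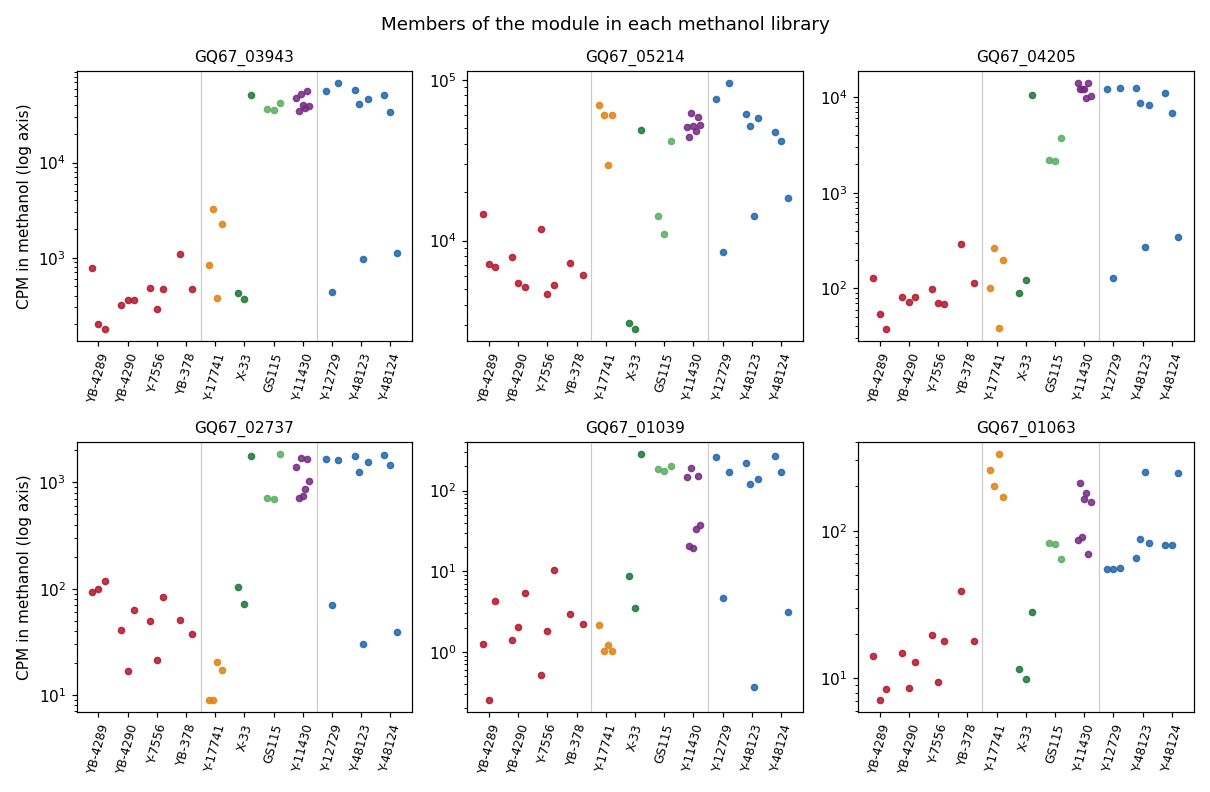
CPM (log axis) of GQ67_03943, GQ67_05214, GQ67_04205, GQ67_02737, GQ67_01039 and GQ67_01063 in each methanol library (points), coloured by strain as in the plot of levels by condition. In GQ67_05214 the Y-17741 libraries lie at 29599 to 69490 CPM, and in GQ67_02737 at 9.0 to 20.4 CPM.

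In glycerol the members also changed with time. In the mean of the 4 strains outside the choice, 81 members fell and 24 rose at 48 h against 24 h glycerol, where 8.73% of all genes fell and 9.61% rose. The median log2 fold change was -0.56 over the members and 0.01 over all genes. The steady genes held 73 of the 81 that fell. From 24 h to 48 h glycerol their level went from 8.68 to 6.99 in X-33 and 8.46 to 7.42 in GS115. It went from 8.89 to 7.73 in Y-17741, and only from 7.73 to 7.21 in Y-11430. The mean thus does not describe each strain, and the strains were not tested singly for time. The lowest log2 fold changes were -3.41 ± 0.28 for GQ67_02968, -3.03 ± 0.26 for GQ67_00528 and -2.77 ± 0.22 for GQ67_03336. Of the rising genes 16 rose and 8 fell, and of the falling genes 6 rose and 0 fell. The level of the falling genes went from 8.98 to 9.90 in X-33 and 8.48 to 9.56 in GS115. It went from 9.39 to 10.4 in Y-17741, and from 9.88 to 9.79 in Y-11430.

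The members lay on all 4 chromosomes. Chromosomes 1 to 4 held 70 (32.9%), 49 (23.0%), 40 (18.8%) and 54 (25.4%) of them. Of all genes at least 50 kb from contig ends, chromosomes 1 to 4 held 30.8%, 25.5%, 24.2% and 19.5%. Annotated introns were more frequent among the members: 29 of 213 (13.6%) had at least 2 exons, against 4.72% of the 4961 genes at least 50 kb from contig ends. The share was 8.0% in the rising, 16.7% in the falling and 15.2% in the steady genes. The median exon length was 1197 bases in the members and 1380 bases in those 4961 genes. These shares and lengths are descriptions without a test. The members were also more abundant, with a median over genes of the mean CPM of 287, against 63.5 in those 4961 genes. The rule for members partly fixes this difference. Genes with almost no counts in the reference strains in methanol could not reach a D of -1.5, while such genes remain among the 4961. How much of the higher abundance comes from the rule was not tested. Any part of abundance in these shares and lengths was not tested.

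**Figure D5:**
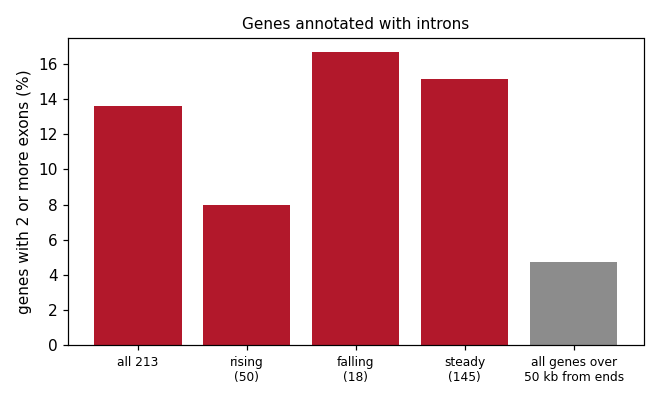
Share of genes annotated with 2 or more exons (%), for the 213 members, their rising, falling and steady genes (red) and all genes at least 50 kb from contig ends (grey). The share is 13.6% in the members and 4.72% in all such genes.

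Of the members 47 (22.1%) had another member as direct neighbour, in 22 runs. No such share was computed for other sets of genes, so whether this is many was not tested. Of the 25 neighbouring pairs, 11 were divergent, with starts facing each other (44.0%), against 28.6% of the 4957 neighbouring pairs of all genes. The 3 longest runs held 3 genes each: GQ67_01661, GQ67_01660 and GQ67_01659 on chromosome 1 (2297165 to 2300134), GQ67_04529, GQ67_04530 and GQ67_04531 on chromosome 4 (461407 to 463912), and GQ67_04886, GQ67_04888 and GQ67_04889 on chromosome 4 (1056295 to 1061594). GQ67_04888 and GQ67_04889 overlap on opposite strands. Whether counting used strand is not given in the sources used here, so their reads may not be separable.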

How the data were processed

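RNA-seq libraries were grouped by strain and condition from the labels. The authors aligned reads with STAR 2.5.3a, quantified genes with RSEM 1.3.0 and deposited expected counts without normalization, of which 100% were whole numbers, and log2(TPM + 1) values. The deposited log2 values served for unlisted TPM and as an alternative unit. Coordinates are those of the authors' annotation, and the last annotated base stood in for the end of a contig. A RefSeq table of 5040 genes held 0 of these identifiers.

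CPM used column sums, with a pseudocount of 1 for log2 values. Counts were tested with edgeR 4.0.16 in R 4.3.3 (TMM, filterByExpr, robust quasi-likelihood F test) in 1 model with a mean per strain and condition over all libraries and 5087 genes. All 213 members passed the filter. Calls needed a Benjamini-Hochberg adjusted p under 0.05 with a log2 fold change of 1 or more in size. The test was checked on simulated counts with the same dispersion for every gene and group. No simulated library was set apart from its group, so the check does not cover groups split like X-33 in methanol. DESeq2 1.42.0 was an alternative.

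The members and lists were chosen with earlier results of these data known. Named genes were those with the lowest D (12), the highest CPM in reference strains in methanol (5), up to 3 per contrast and direction by fold change, 3 on each side of the limit, the longest runs, any with a symbol in the study's supplement (0 members), and the 2 nearest to and 2 farthest from Cluster 2 in X-33, GS115 and Y-17741. A selection of these is described. Precision is limited by library totals of 70901 to 16336681 counts.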

Additional observations from a re-analysis of the deposited data

Results flagged for a closer look

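Within groups of 4 to 10 libraries, Y-48123 methanol C stood apart from the other 3 Y-48123 methanol libraries. Its mean level was 5.73 over all members, 6.03 over the rising genes, 5.82 over the falling genes and 5.61 over the steady genes, and GQ67_01063 had 249 CPM there, above the others. These were 5 such cases in 56 combinations of quantity and group, and the 5 are 1 library seen in quantities that share genes. Y-48123 is a reference strain whose values helped to choose the members. The 5 cases are thus a description, and no chance rate is read from them.

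The methanol response differed from that of Y-11430, by the interaction test in edgeR, for 103 members in X-33 (103 lower and 0 higher, where 13.3% of all genes were lower and 9.67% higher), 98 in Y-17741 (97 lower and 1 higher, where the shares were 15.4% and 11.5%) and 10 in GS115 (6 lower and 4 higher, where the shares were 2.46% and 3.24%, so this count is near that of all genes). Leaving out 1 library at a time gave 40 to 166 members in X-33.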

How the results depend on the processing

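Of 263 alternative counts of members called, 240 were within 1.5 times the reported count. With an adjusted p alone, 120 members were called for methanol against 48 h glycerol in the mean of 4 strains, 161 for 48 h against 24 h glycerol and 5 for X-33 against Y-11430 at 48 h glycerol, where DESeq2 called 6. Without the libraries under 1000000 counts, an alternative chosen after seeing the data, 9 members were called for GS115 against Y-11430 at 48 h glycerol, 165 for the X-33 interaction and 4 for the GS115 interaction. Leaving out 1 library at a time gave 74 to 197 for X-33, 29 to 40 for GS115 and 91 to 106 for Y-17741 against Y-11430 in methanol, 0 to 2, 8 to 12 and 5 to 24 at 48 h glycerol, and 40 to 166, 2 to 15 and 61 to 104 for the interactions. For methanol against 48 h glycerol the ranges were 63 to 70 in Y-11430, 83 to 143 in X-33, 38 to 60 in GS115, 72 to 96 in Y-17741 and 76 to 84 in the mean, and for 48 h against 24 h glycerol 101 to 110. The cause was not tested. The number of genes that meet the rule was 244 with a pseudocount of 0.25, 170 with 5, 190 with TMM library sizes, 213 with a minimum of 5 CPM, and 193 to 265 without 1 library of the 7 strains, methanol or glycerol, where the glycerol libraries were added after seeing the data. The single Y-48123 library at 48 h glycerol could not be left out.

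Same-letter libraries were weakly correlated: 7 of 35 same-letter pairs had deviations correlated over 0.1 (range -0.228 to 0.271). The highest were methanol B and C of X-33 (0.271 and 0.26) and of GS115 (0.217 and 0.242) with Y-11430. With few libraries per group, these correlations cannot settle whether a letter marks a shared batch. With the letter as replicate block, 170 members were called for X-33, 35 for GS115 and 98 for Y-17741 against Y-11430 in methanol, and no count of calls moved by over 1.5 times. Of 48 alternative levels, 19 moved by more than 1 SD. RLE size factors moved the median of all genes by up to 0.10. Of 1806 alternative fold changes, 65 lost and 8 gained their call and 8 reversed, all in GS115 against Y-11430 in methanol and near 0. GQ67_02737 was 0.07 and 0.10 without GS115 methanol A and B and -0.94 without C. GQ67_04449 was 0.000504 with RLE size factors, 0.0637 with the replicate block, 0.0006004 with DESeq2, 0.05 and 0.14 without GS115 methanol A and B and -0.33 without C, and 0.0005551 without Y-11430 methanol C.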
